A study of Mus musculus with 5 samples.

Results

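The 10 genes described here are 5 ligands of the epidermal growth factor (EGF) family (Ereg, Areg, Hbegf, Nrg1 and Tgfa), the 4 ERBB receptors (Egfr, Erbb2, Erbb3 and Erbb4), and Inhba, which encodes the activin A subunit. They were taken by gene symbol, and each symbol matched 1 of the 32285 genes in the count matrices. The set was chosen on measured values of these libraries, namely the level of its genes per cell type and the difference between the genotypes. All levels and genotype differences of the 10 genes are therefore given as a description, and the calls quoted for them are not independent evidence. The set was named for products of alveolar macrophages, but only Ereg and Inhba were highest in alveolar macrophage-like cells. Areg was present there and at similar levels in other immune and epithelial classes, and the other 7 genes were highest elsewhere.

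The study profiled whole lungs of E18.5 mouse embryos, enzymatically dissociated into single cells, with droplet-based 3′ single-cell RNA sequencing. Per the labels, 2 embryos were Zswim8+/- (Het1 and Het2) and 3 were Zswim8-/- (KO1, KO2 and KO3). Each embryo gave 1 library, and the strain and the deleted part of the gene were not given in the sources used here. The ZSWIM8 protein recruits targets to a ubiquitin ligase and is known for its part in the degradation of certain microRNAs.

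After filtering, the 5 libraries held 3051 to 4634 cells and 40557271 to 65087733 unique molecular identifiers (UMIs) in those cells. Zswim8 RNA was 36.1 and 38.6 CPM (counts scaled to 1000000 UMIs of the cells summed) in Het1 and Het2 and 38.3, 39.2 and 40.9 CPM in KO1, KO2 and KO3. The 3′ tag need not lie in the deleted part, so this level does not check the genotype, and every direction below rests on the labels. Y-linked UMIs placed KO1 and KO2 as female and the other 3 libraries as male, so sex and genotype overlapped in part. Between any pair of libraries, at most 6 cell barcodes were shared.

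EGF-family ligands are made as membrane-bound precursors and are released by shedding enzymes of the ADAM family. They bind receptor tyrosine kinases of the ERBB family, which pair with one another and signal largely through the RAS and ERK cascade. Erbb2 binds no known ligand, and Erbb3 has little kinase activity, so both act mainly in pairs. Activin A is a dimer of the TGF-beta family that signals through activin receptors and SMAD proteins. In the lung, macrophages, epithelium and fibroblasts exchange these factors during growth and repair.

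Ereg and Areg are neighbours on chromosome 5 of the GRCm38 build (Ereg at 91074622 to 91093646 and Areg at 91139599 to 91148432, both on the plus strand). The gap between them is 45952 bases, with 0 annotated genes in it. Inhba lies on chromosome 13 at 16011851 to 16031621 on the plus strand. The others lie on chromosomes 18 (Hbegf), 8 (Nrg1), 6 (Tgfa), 11 (Egfr and Erbb2), 10 (Erbb3) and 1 (Erbb4). All 10 genes are annotated as protein-coding. In the files, Ereg, Egfr, Erbb2, Erbb4 and Inhba each overlap 1 other counted gene, all of these others on the minus strand. Erbb4 also lies on the minus strand, and the counting of reads shared by overlapping genes was not given in the sources used here.

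RefSeq promoter entries (build GRCm38.p6), from 250 bases before to 50 bases after the gene start, were matched for 6 of the 10 genes. The promoters of Areg (chr5:91139349-91139648, plus strand) and Inhba (chr13:16011601-16011900, plus strand) are shown because both genes were high in the same alveolar macrophage-like cells. Capitals mark matches on either strand to the cAMP response element TGACGTCA, the AP-1 motif TGANTCA or the TATA box TATAAA. The motifs were searched separately and did not overlap here.
Areg: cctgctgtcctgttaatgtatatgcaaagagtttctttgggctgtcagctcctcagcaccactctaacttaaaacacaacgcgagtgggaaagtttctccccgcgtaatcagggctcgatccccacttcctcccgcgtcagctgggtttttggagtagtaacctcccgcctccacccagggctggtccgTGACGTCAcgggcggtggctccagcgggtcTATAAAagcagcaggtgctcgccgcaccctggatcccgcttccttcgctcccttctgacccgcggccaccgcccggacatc
Inhba: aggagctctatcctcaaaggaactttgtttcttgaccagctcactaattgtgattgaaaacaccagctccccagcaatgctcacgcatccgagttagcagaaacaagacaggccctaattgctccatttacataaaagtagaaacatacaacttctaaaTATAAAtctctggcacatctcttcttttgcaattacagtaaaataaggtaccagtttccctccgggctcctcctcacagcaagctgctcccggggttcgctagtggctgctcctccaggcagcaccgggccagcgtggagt

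The Areg window held 1 cAMP response element starting at -61 and 1 TATA box starting at -31 from the gene start, and the Inhba window held 1 TATA box match starting at -91. Of 32851 promoters of the same length, 1.79% held the cAMP response element, 7.81% the AP-1 motif and 13.6% the TATA box. The other 4 promoters, of Tgfa, Egfr, Erbb2 and Erbb4, held none of these motifs, and the AP-1 motif had 0 matches in all 6. These are matches of letters in a window and not measured sites.

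Cells were grouped by clustering, and a class is called "X-like" where its clusters carried the markers of X. Of 18869 cells, 81.9% fell in named clusters. A class of immune cells with clusters led mostly by Lpl, Ear2, Plet1 and Abcg1 is called the Ear2 Plet1 class after its genes and was given no cell type name. The alveolar macrophage-like class was led by Spp1, Wfdc17, Car4, Inhba and Il1a, although none of the 10 genes entered the clustering. In its Het cells Car4 was 763 and 828 CPM, Fabp4 1364 and 1328 CPM and Atp6v0d2 248 and 262 CPM. Siglecf was only 4.62 and 1.99 CPM there and Chil3 4.04 and 14.6 CPM, so 2 defining markers of mature alveolar macrophages were close to 0. Of the 11 markers listed for this cell type, 6 marked its clusters.

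**Figure D1:**
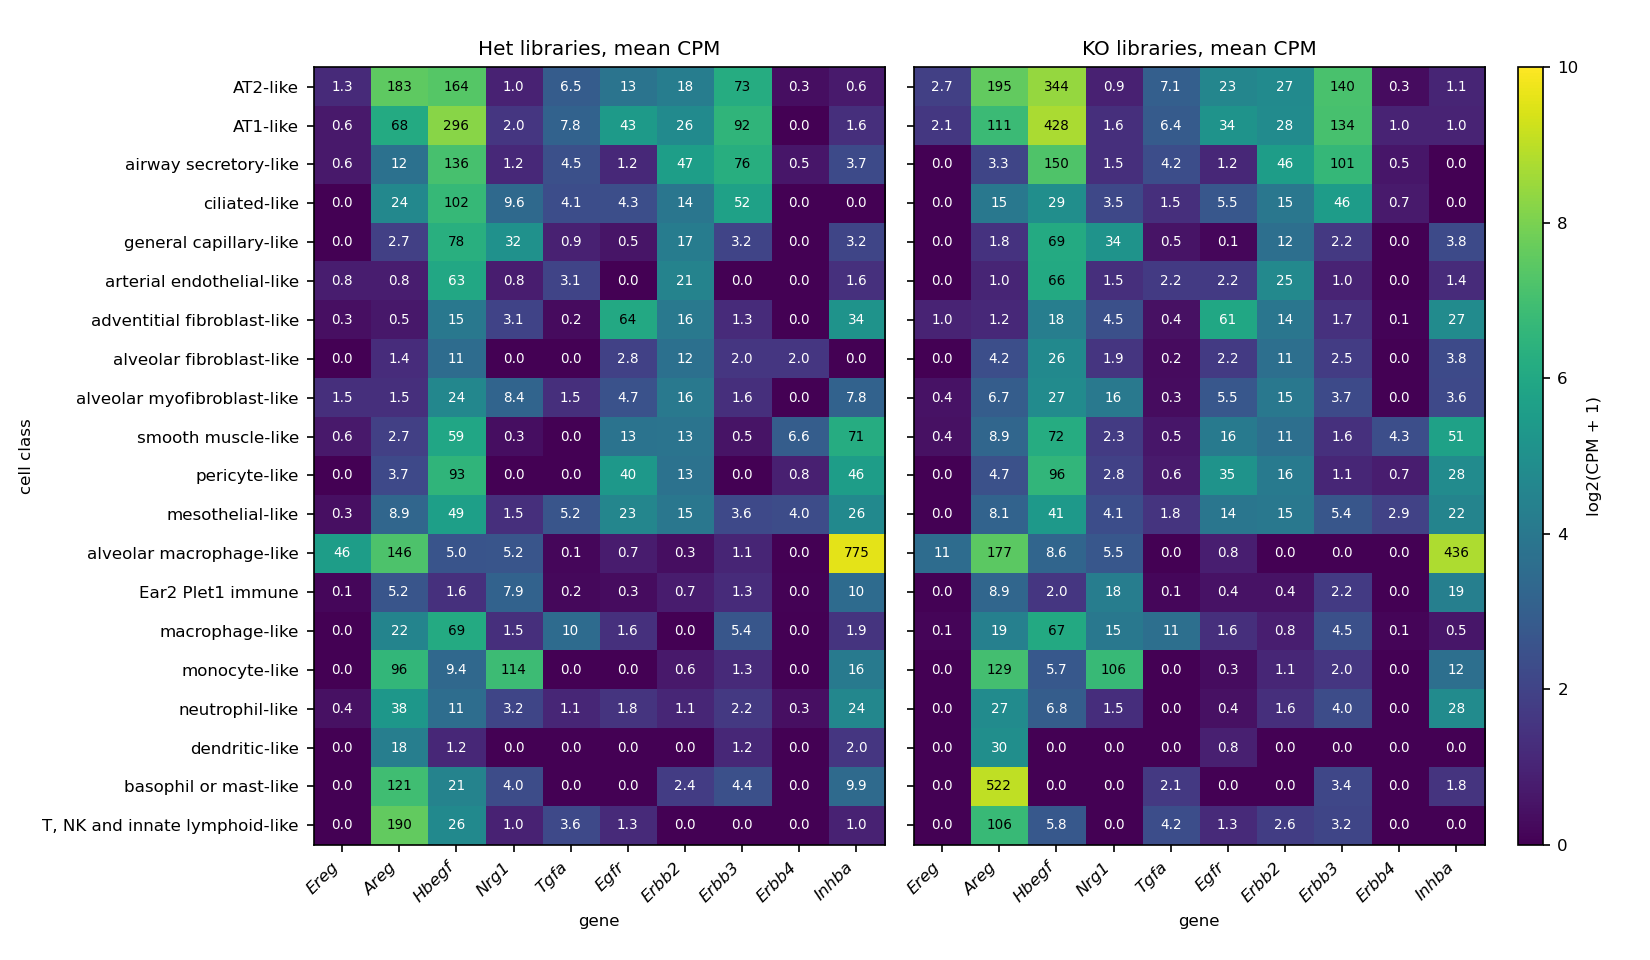
Mean CPM of the 10 genes (columns) in 20 cell classes (rows), in Het libraries on the left and KO libraries on the right. Each mean is over libraries with at least 10 cells of the class, colour is log2(CPM + 1), and Ereg stands out in 1 row while Erbb3 exceeds 10 CPM only in the 4 epithelial rows.

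Among the ligands, Ereg (epiregulin) had the narrowest pattern. In Het alveolar macrophage-like cells it was 40.7 CPM in Het1 and 51.4 CPM in Het2. No other class with at least 10 cells in both Het libraries had a mean above 1.52 CPM, out of 23 classes ordered. In red-cell barcodes, which hold free RNA, Ereg was 0 to 0.361 CPM, although haemoglobin takes most UMIs there. The genes with the most similar pattern over the 23 classes were Mcoln3, Atp6v0d2 and Car6, with Pearson r of 0.93, 0.92 and 0.91 on log2(CPM + 1). Such correlations are across classes of the same libraries and are a description.

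Areg (amphiregulin) was spread over immune and epithelial classes. The Het means were 190 CPM in T, NK and innate lymphoid-like cells (118 and 263 CPM), 183 CPM in AT2-like cells (186 and 180 CPM), 146 CPM in alveolar macrophage-like cells (161 and 131 CPM) and 121 CPM in basophil or mast-like cells (71.3 and 171 CPM). AT2-like cells are the surfactant-making cells of the alveolus. Of these neighbours in the order, only AT2-like cells stood above the next class without overlap. Monocyte-like cells followed at 102 and 90.6 CPM and AT1-like cells at 87.8 and 48.3 CPM. Endothelial cells had 1.99 and 2.23 CPM, within the 1.30 to 4.69 CPM of red-cell barcodes over the 5 libraries.

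Hbegf (heparin-binding EGF-like growth factor) was highest in AT1-like cells, the flat gas-exchange cells, at 272 and 320 CPM in the Het libraries. AT2-like cells followed at 133 and 196 CPM, airway secretory-like cells at 136 and 136 CPM and ciliated-like cells at 80.6 and 123 CPM. Outside the epithelium, pericyte-like cells had 103 and 83.0 CPM and general capillary-like cells 74.1 and 82.8 CPM. Macrophage-like cells marked by C1q genes had 91.8 and 46.2 CPM, while alveolar macrophage-like cells had 7.22 and 2.73 CPM.

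Nrg1 (neuregulin 1, a ligand of Erbb3 and Erbb4) was highest in monocyte-like cells, at 116 and 113 CPM in the Het libraries. General capillary-like cells followed at 26.2 and 38.3 CPM, and their Nrg1 came mostly from 1 small cluster led by Vwf, Procr and Ptprb. This cluster carried 7 of 8 general capillary markers, which gave its name, and also 3 of 6 venous endothelial markers. In that cluster of 12 to 22 cells per library, Nrg1 was 204 and 234 CPM in Het1 and Het2 and 236, 362 and 274 CPM in KO1, KO2 and KO3. Tgfa (transforming growth factor alpha) was low in the ordered classes, at 9.28 and 11.1 CPM in macrophage-like cells, 7.08 and 8.52 CPM in AT1-like cells and 7.26 and 5.71 CPM in AT2-like cells of the Het libraries. A cluster of Schwann or neural-like cells had 84.3 and 99.2 CPM of Tgfa, from 3 and 10 UMIs in 5 and 6 Het cells.

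Among the receptors, Egfr was highest in adventitial fibroblast-like cells, at 62.6 and 65.0 CPM in the Het libraries. AT1-like cells had 41.5 and 44.2 CPM and pericyte-like cells 32.8 and 46.4 CPM, which overlapped. AT2-like cells had less Egfr than AT1-like cells, at 11.1 and 15.6 CPM. Over all immune cells Egfr was 0.490 and 0.382 CPM, against 0.153 to 1.08 CPM in red-cell barcodes.

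Erbb2 was the broadest receptor. It was 48.6 and 46.2 CPM in airway secretory-like cells, 26.0 and 26.8 CPM in AT1-like cells and 17.8 and 18.2 CPM in AT2-like cells of the Het libraries. Endothelial and mesenchymal cells had 13.2 to 18.9 CPM in the Het libraries, and immune cells 0.525 and 0.556 CPM. Erbb3 was epithelial: AT1-like cells had 87.8 and 95.3 CPM, airway secretory-like cells 92.0 and 59.9 CPM, AT2-like cells 69.7 and 75.6 CPM and ciliated-like cells 57.4 and 47.2 CPM. The next class in the order had a Het mean of 5.38 CPM. Outside the ordered classes, the small Schwann or neural-like cluster had 253 and 218 CPM of Erbb3 in the Het libraries. The genes most similar to Erbb3 over the 23 classes were Irx2, Irx5 and Crb3, each with r = 0.95.

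Erbb4 was close to undetected, with 7 to 43 UMIs in each whole library of kept cells. Its highest cluster was an unnamed one led by the heart muscle genes Myl7, Ttn and Myh6. There it had 20 UMIs in 14 Het1 cells, 10 UMIs in 20 KO3 cells and 0 UMIs in the other 3 libraries. Smooth muscle-like cells had 2.42 and 10.8 CPM in the Het libraries, and no epithelial or immune class reached 2 CPM in any library.

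Inhba was highest in alveolar macrophage-like cells, at 648 and 902 CPM in Het1 and Het2. Smooth muscle-like cells followed at 75.0 and 67.8 CPM, pericyte-like cells at 55.8 and 36.6 CPM and adventitial fibroblast-like cells at 33.6 and 34.0 CPM. Each of these 4 classes stood above the next without overlap between the Het libraries. Neutrophil-like cells had 20.8 and 26.2 CPM and the Ear2 Plet1 class 9.92 and 10.7 CPM. Epithelial and endothelial cells were at 0.789 to 2.87 CPM, against 0.165 to 1.07 CPM in red-cell barcodes. The most similar genes were Cxcl1, Dubr and Spp1, with r of 0.71, 0.69 and 0.68.

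Het and KO libraries were then compared on UMIs summed per library. The fit was edgeR's quasi-likelihood test over all genes tested, two-sided, with a Benjamini-Hochberg adjusted p below 0.05 as the call. In the whole library, 3 of the 10 genes were called, where 4.64% of 17743 genes were called. Ereg and Inhba were lower and Erbb3 was higher in KO libraries. Without Het1 or without Het2 the count was 1, without KO1 or without KO2 it was 2, and without KO3 it was 0. The whole-library call of Erbb3 was lost in 11 of 16 alternatives, among them the loss of any single library. Among epithelial sums 1 of 9 genes tested was called, Erbb3, against 10.4% of all genes, and without Het1 or without Het2 it was 0. Among immune sums 3 of 9 were called, Ereg, Inhba and Tgfa, against 8.33% of all genes.

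Neither endothelial nor mesenchymal sums gave a call by edgeR or by DESeq2. For endothelial sums 0 of 6 genes were called and 1 had an unadjusted p under 0.05, where 5.27% of all genes were called. For mesenchymal sums 0 of 8 were called and 2 had an unadjusted p under 0.05, where 0% of 13790 genes were called. Where sums are over all cells of a lineage, fewer cells of a type and less RNA per cell cannot be told apart. The median log2 fold change of the genes tested was 0.03 in the whole library, 0.21 in epithelial, -0.12 in endothelial, -0.01 in mesenchymal and 0.44 in immune sums. The median over all genes lay between -0.01 and 0.01 in each of these fits.

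**Figure D2:**
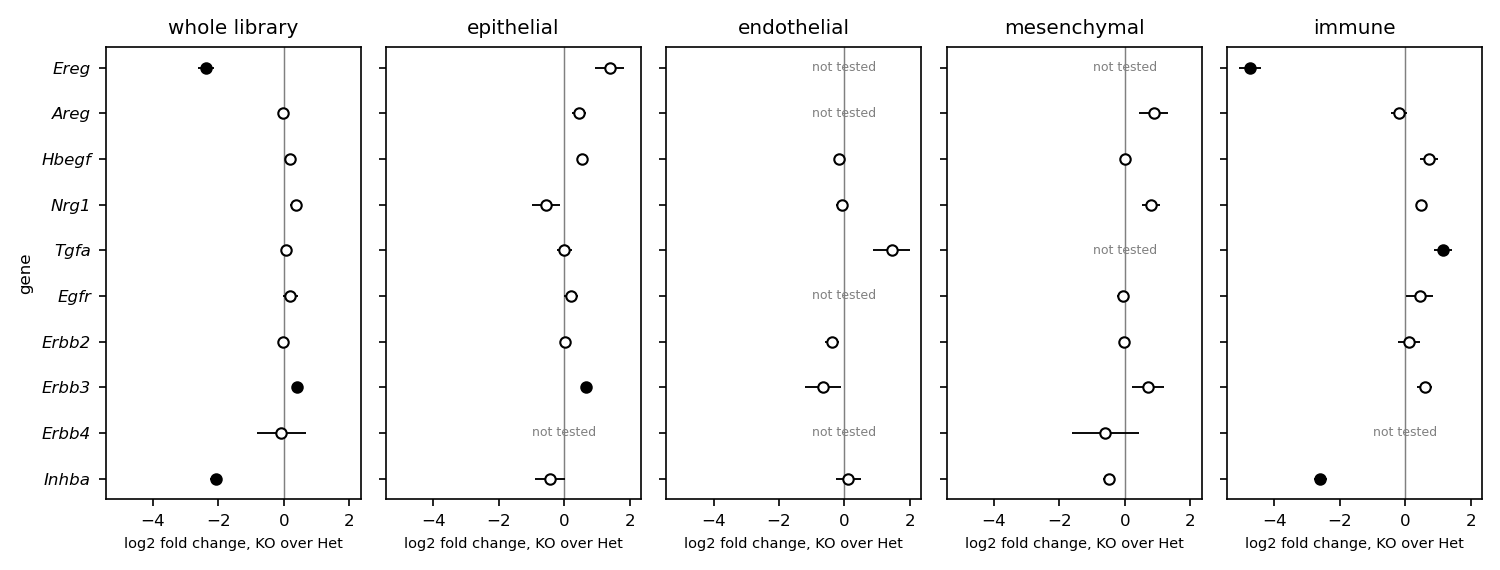
Log2 fold change (KO over Het, points) with its standard error (bars) for each gene in the whole library and in 4 lineages. Filled points passed the adjusted p threshold of 0.05: Ereg, Erbb3 and Inhba in the whole library, Erbb3 in epithelium, and Ereg, Tgfa and Inhba in immune cells.

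In 10 cell classes large enough to be fitted, 6 of 48 pairs of gene and class were called, where 3.63% of all pairs were called. They were Erbb3 and Hbegf in AT2-like cells, Erbb3 and Hbegf in AT1-like cells, and Nrg1 and Inhba in the Ear2 Plet1 class, and all 6 were higher in KO libraries. The shares of all genes called were 12.1% in AT2-like, 6.56% in AT1-like and 6.36% in Ear2 Plet1 cells. They were 4.55% in general capillary-like, 0.0189% in adventitial fibroblast-like, 0.762% in alveolar myofibroblast-like, 0.122% in smooth muscle-like, 1.22% in macrophage-like, 0.0111% in monocyte-like and 0% in neutrophil-like cells. In those 7 classes 0 of the genes were called by edgeR or DESeq2, and 2 pairs had an unadjusted p under 0.05. Each of these 6 calls was lost without Het1 and also without Het2. With sex as a covariate the count over classes was 1, that of Nrg1 in the Ear2 Plet1 class.

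Inhba was lower in KO lungs, and its largest difference was in immune cells. In the whole library it was 44.4 and 69.4 CPM in Het1 and Het2 and 14.0, 13.1 and 14.1 CPM in KO1, KO2 and KO3. The groups lay far apart, with a log2 fold change of -2.08 (SE 0.18). In immune cells it was 88.0 and 138 CPM in the Het libraries and 14.8, 21.4 and 21.5 CPM in the KO libraries, a log2 fold change of -2.60 (SE 0.20). In mesenchymal cells it was 35.5 and 33.6 CPM against 28.8, 20.4 and 22.5 CPM. That difference of -0.49 (SE 0.16) was without overlap but was not called. The whole-library call of Inhba was lost without KO3 and with sex as a covariate, while the immune call was kept in 16 of 17 alternatives.

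Alveolar macrophage-like cells made up 7.77% and 8.46% of immune cells in Het1 and Het2 (180 and 190 cells). In KO1, KO2 and KO3 they made up 0.0898%, 0.891% and 1.48% (1, 16 and 30 cells). These cells carried 79.6% and 84.0% of all Inhba UMIs of the kept cells in the Het libraries, and 0%, 30.9% and 19.5% in the KO libraries. A cell of the class held 12.5 Inhba UMIs on average in Het1, 19.1 in Het2, 12.9 in KO2 and 5.97 in KO3. As CPM within the class, KO2 was at 592 (exact Poisson 95% interval 514 to 679) and KO3 at 281 (241 to 325), from 207 and 179 UMIs. The intervals here cover counting error only, and the single cell of KO1 gives no level. Both KO values lay below both Het values of 648 and 902 CPM, but the interval of KO2 includes the value of Het1, and the class had too few KO cells for a fit. Over all immune cells, the 11 alveolar macrophage markers were each lower in every KO library, with a sum of 2159 to 2216 CPM in the Het and 1096 to 1198 CPM in the KO libraries.

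With the alveolar macrophage-like cells left out, an alternative chosen after seeing the data, the log2 fold change of Inhba was 0.16 in immune sums and 0.09 in the whole library. Neither was called, and both had turned in sign.

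**Figure D3:**
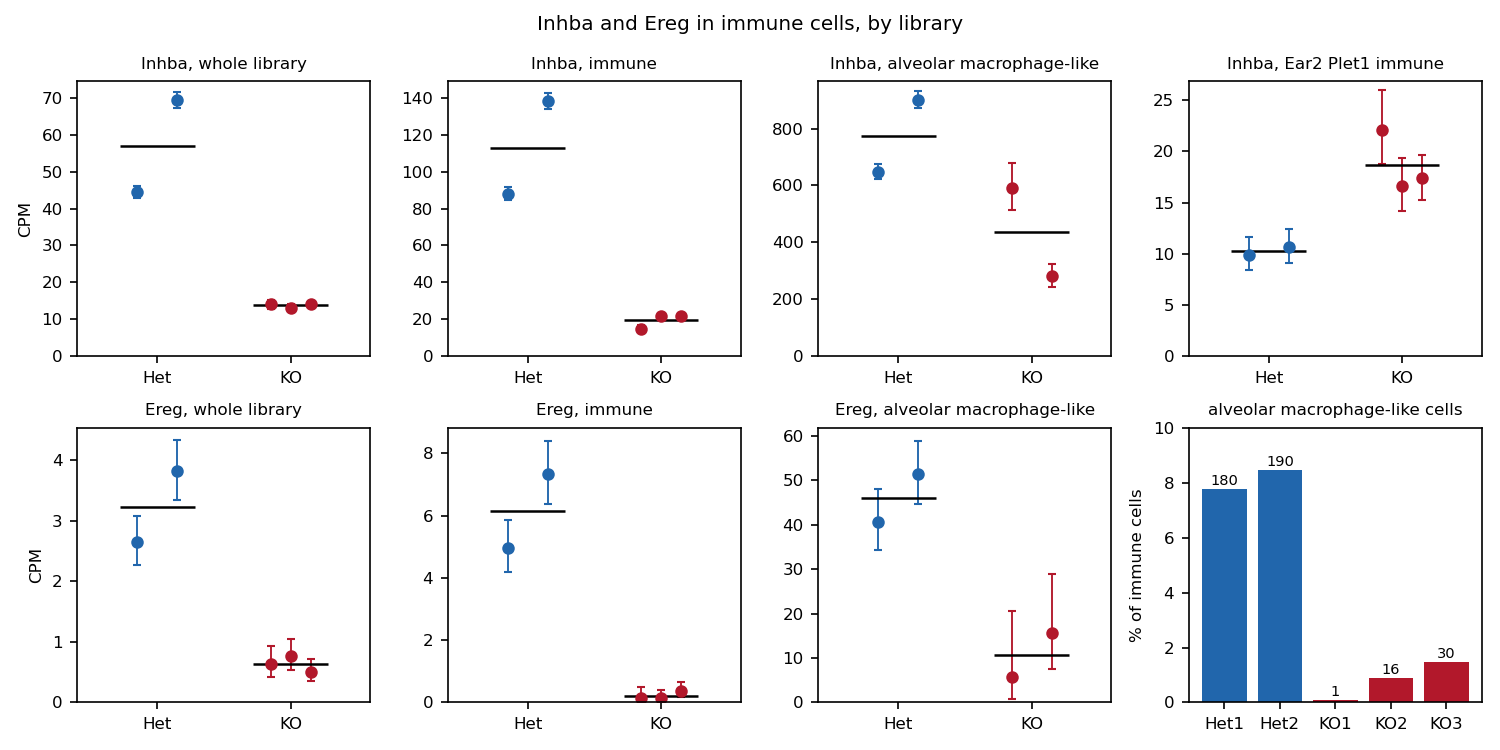
Inhba (top) and Ereg (bottom) in CPM for each library (points, with exact Poisson 95% intervals; black lines are group means) in the whole library, immune cells and alveolar macrophage-like cells; KO1, with 1 such cell, is not drawn in the last. The top right panel shows Inhba in the Ear2 Plet1 class, where the 3 KO libraries sit above both Het libraries, and the bottom right panel shows alveolar macrophage-like cells as a percent of immune cells with the cell numbers above the bars.

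Within the Ear2 Plet1 class Inhba went the other way. It was 9.92 and 10.7 CPM in the Het libraries and 22.1, 16.6 and 17.4 CPM in the KO libraries, all KO values being higher, with a log2 fold change of 0.80 (SE 0.14). The class held 994 and 973 Het cells and 374, 587 and 787 KO cells, and its share of the Inhba UMIs of a library went from 5.44% and 3.84% in the Het to 26.5%, 24.7% and 26.8% in the KO libraries. By cluster, the one led by Lpl, Gal and Ear2 had 2.93 and 2.84 CPM against 10.3, 6.80 and 8.55 CPM, without overlap. In the cluster led by Plet1, Olr1 and Ear2 the values were 19.0 and 23.6 CPM against 59.0, 46.6 and 18.2 CPM, which overlapped. The sum of the alveolar macrophage marker list overlapped between the groups here, at 1895 to 1929 CPM in the Het and 1605 to 2005 CPM in the KO libraries. Of its 11 markers, 9 were lower in every KO library and 1, Fabp5, was higher in every KO library. Fabp5 was 388 and 401 CPM in the Het and 796, 688 and 513 CPM in the KO libraries. The call was lost without Het1, without Het2, at Leiden resolution 0.5 and with sex as a covariate, with log2 fold changes from 0.51 to 0.88 over 16 alternatives.

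Ereg followed the same cells as Inhba. In the whole library it was 2.65 and 3.82 CPM in the Het libraries and 0.641, 0.762 and 0.507 CPM in the KO libraries, a log2 fold change of -2.38 (SE 0.25). In immune sums it was 4.97 and 7.33 CPM against 0.139, 0.138 and 0.364 CPM, and the log2 fold change was -4.75 (SE 0.34). The KO values rest on 2, 3 and 10 UMIs. Alveolar macrophage-like cells carried 83.9% and 87.0% of the Ereg UMIs of the Het libraries. Within the class Ereg was 5.72 CPM in KO2 (interval 0.693 to 20.7) and 15.7 CPM in KO3 (7.52 to 28.8), below the 40.7 and 51.4 CPM of the Het libraries. In epithelial sums Ereg was 0.502 and 0.850 CPM against 2.37, 1.95 and 1.39 CPM, without overlap and without a call. Without the alveolar macrophage-like cells, its whole-library log2 fold change was 0.20. The whole-library call of Ereg was lost without Het1, without Het2, without KO3 and with sex as a covariate. Its immune call was kept in all 16 alternatives that gave a value. The immune fit without the alveolar macrophage-like cells was not among them, because Ereg was not tested there.

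Erbb3 was higher in KO epithelium. Over epithelial cells it was 70.0 and 73.3 CPM in the Het and 143, 108 and 109 CPM in the KO libraries, with a log2 fold change of 0.68 (SE 0.15). In AT2-like cells it was 69.7 and 75.6 CPM against 174, 122 and 123 CPM, and in AT1-like cells 87.8 and 95.3 CPM against 141, 143 and 117 CPM. The groups did not overlap in any of the 3 comparisons, and the log2 fold changes in the classes were 0.74 (SE 0.19) and 0.49 (SE 0.13). In the whole library Erbb3 was 25.5 and 24.1 CPM against 34.8, 34.0 and 31.4 CPM.

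Hbegf was higher in the same alveolar classes. In AT2-like cells it was 133 and 196 CPM in the Het and 417, 331 and 283 CPM in the KO libraries, with a log2 fold change of 0.87 (SE 0.21). In AT1-like cells it was 272 and 320 CPM against 440, 424 and 420 CPM, with a log2 fold change of 0.49 (SE 0.12). Over all epithelial cells it was 175 and 218 CPM against 354, 279 and 261 CPM, without overlap and without a call. Both calls of Erbb3 and Hbegf in AT2-like cells, and both in AT1-like cells, were lost without Het1, without Het2 and with sex as a covariate. Those in AT1-like cells were also lost when mixed cells were left out, and that of Erbb3 there also without KO2 and by DESeq2.

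The makeup of these classes differed between the genotypes. AT2-like cells fell in 3 clusters, mainly a cluster led by Retnla, Lyz1 and S100g (216 and 133 Het cells; 40, 36 and 88 KO cells) and a deeper one led by Cldn18, Foxp2 and Slc34a2 (59 and 51 Het cells; 78, 67 and 99 KO cells). In the first, Hbegf was 55.5 and 62.9 CPM against 123, 85.9 and 97.9 CPM, and Erbb3 was 56.6 and 57.8 CPM against 135, 82.6 and 96.2 CPM. In the second, Hbegf was 267 and 311 CPM against 483, 365 and 338 CPM, and Erbb3 was 91.7 and 95.4 CPM against 186, 136 and 138 CPM. Within either cluster every KO library was above both Het libraries for both genes. The remaining, cycling cluster was led by Foxp2, Epcam and Egfl6 and held 1 and 6 Het cells and 11, 39 and 33 KO cells. There Hbegf was 381 and 334 CPM against 361, 331 and 280 CPM, and Erbb3 was 143 and 56.4 CPM against 153, 112 and 104 CPM. The groups overlapped for both genes in that cluster, but neither Het library had the 10 cells that a level needs there.

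AT1-like cells fell in a deeper cluster led by Ager, Emp2 and Akap5 (82 and 99 Het cells; 43, 51 and 67 KO cells) and a shallower one led by Emp2, Ager and Rtkn2 (137 and 115 Het cells; 23, 30 and 56 KO cells). In the deeper cluster, Hbegf was 482 and 454 CPM against 558, 516 and 533 CPM, and Erbb3 was 104 and 93.4 CPM against 166, 152 and 122 CPM. In the shallower cluster the groups overlapped for both genes, with Hbegf at 28.6 and 37.8 CPM against 31.9, 3.92 and 18.6 CPM. The difference of Hbegf between these clusters was thus larger than that between the genotypes in either.

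Other marker lists moved with these epithelial results. In AT2-like cells the 8 AT2 markers were all lower in every KO library, with a sum of 106091 to 118330 CPM in the Het and 42631 to 64237 CPM in the KO libraries. The 7 cycling markers were all higher, at 50.1 to 173 CPM against 427 to 645 CPM. General epithelial markers were higher in every KO library in 6 of 7 cases, with a sum of 1589 to 2162 CPM against 2503 to 2872 CPM. Of 10 AT1 markers, 5 were higher and 1 was lower in every KO library, and the sums overlapped. The mesenchymal list was at 88.1 to 111 CPM against 113 to 293 CPM, with 2 of 7 higher in every KO library. Immune markers were lower in 6 of 7 cases, at 47.4 to 57.3 CPM against 14.6 to 32.1 CPM, and the alveolar macrophage list was at 2713 to 3201 CPM against 610 to 858 CPM. In AT1-like cells 9 of 10 AT1 markers were lower in every KO library, at 17137 to 17771 CPM against 10963 to 12571 CPM. The AT2 list was higher there, at 4129 to 4640 CPM against 5124 to 8066 CPM, with 4 of 8 markers higher in every KO library. The endothelial list was at 141 to 147 CPM against 47.1 to 74.9 CPM, with 4 of 7 markers lower in every KO library, and the immune list at 61.4 to 66.5 CPM against 26.7 to 41.5 CPM, with 3 of 7 lower. The sum of the alveolar macrophage list was instead higher in AT1-like cells, at 60.5 to 75.1 CPM against 80.9 to 109 CPM. Of its 11 markers there, 1 was higher and 3 were lower in every KO library. The part of these marker lists in the differences of Hbegf and Erbb3 was not tested.

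**Figure D4:**
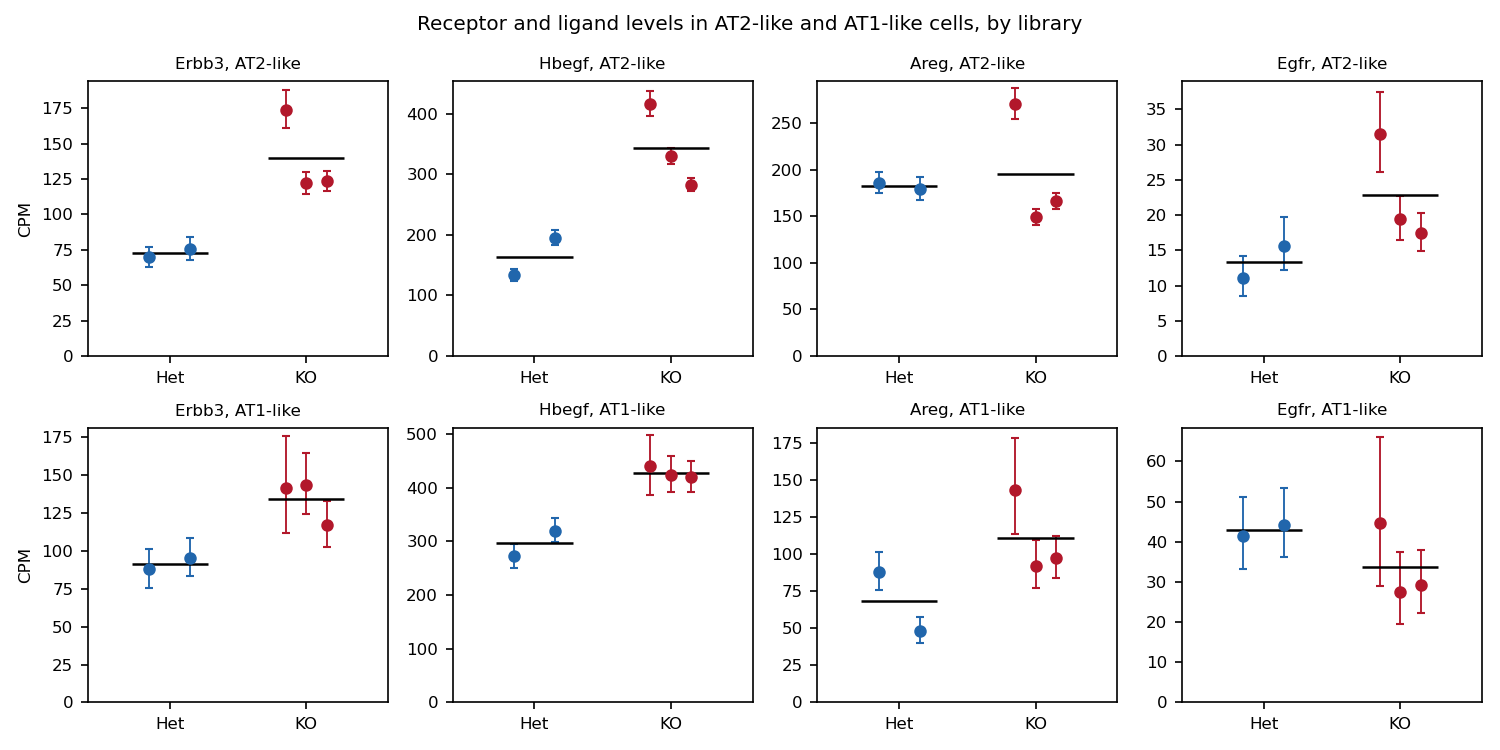
Erbb3, Hbegf, Areg and Egfr in AT2-like cells (top) and AT1-like cells (bottom), in CPM for each library (points, with exact Poisson 95% intervals; black lines are group means). For Erbb3 and Hbegf the 3 KO libraries lie above both Het libraries in both classes, while Areg in AT2-like cells and Egfr in AT1-like cells overlap between groups.

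Areg, which shares cell types with Ereg and Hbegf, was not called in any fit. In the whole library it was 58.4 and 47.2 CPM against 60.3, 51.0 and 47.5 CPM, and in immune sums 48.4 and 39.8 CPM against 53.3, 42.0 and 26.7 CPM. In AT2-like cells it was 186 and 180 CPM against 271, 149 and 166 CPM. The groups overlapped in all 3, with log2 fold changes of -0.02 (SE 0.14), -0.19 (SE 0.25) and -0.10 (SE 0.25). In AT1-like cells Areg was 87.8 and 48.3 CPM against 143, 92.1 and 97.4 CPM, without overlap and without a call. In alveolar macrophage-like cells it was 161 and 131 CPM in the Het libraries and 175 and 179 CPM in KO2 and KO3. Both KO values lay above both Het values, but they come from 16 and 30 cells, too few for a fit. One high value, 1253 CPM in basophil or mast-like cells of KO1, came from 115 UMIs in 12 cells.

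Nrg1 was higher in the Ear2 Plet1 class of KO libraries, at 8.36 and 7.35 CPM in the Het and 20.5, 19.4 and 13.8 CPM in the KO libraries, with a log2 fold change of 1.12 (SE 0.18). Every KO library was above both Het libraries. In monocyte-like cells, where Nrg1 was highest, it was 116 and 113 CPM against 102, 108 and 109 CPM, a difference of -0.12 (SE 0.11) on the log2 scale. In the cluster of the Ear2 Plet1 class led by Gpr171, S100a4 and Ccr2, Nrg1 was 17.2 and 17.1 CPM against 39.1, 40.6 and 27.3 CPM. That cluster held 206 and 185 of the 994 and 973 Het cells of the class. In the KO libraries it held 95, 178 and 223 of 374, 587 and 787 cells. The part of this makeup in the Nrg1 difference of the class was not tested. In macrophage-like cells the KO libraries differed widely and the groups overlapped; the largest cluster had 3.86 and 0 CPM in the Het and 32.4, 17.6 and 3.10 CPM in the KO libraries. In both classes KO3, the only male KO library, had the lowest KO value. The call in the Ear2 Plet1 class was kept with sex as a covariate and lost without Het1, without Het2 and at Leiden resolution 1.

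Tgfa was higher in KO immune sums, at 0.876 and 0.904 CPM against 2.02, 1.57 and 2.62 CPM, with a log2 fold change of 1.16 (SE 0.28). Red-cell barcodes had 0.230 to 0.902 CPM. Most of these UMIs came from macrophage-like cells, 18 of 25 in Het1 and 20 of 26 in Het2, and 29 of 29, 30 of 34 and 65 of 72 in KO1, KO2 and KO3. Within that class Tgfa was 9.28 and 11.1 CPM against 9.80, 9.23 and 15.2 CPM, which overlapped, with a log2 fold change of 0.14 (SE 0.30). The class made up 9.88% and 9.48% of immune cells in the Het libraries and 28.4%, 20.04% and 21.4% in the KO libraries. The immune call was lost without Het1, without Het2, without KO3 and with sex as a covariate, and in 5 further alternatives.

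**Figure D5:**
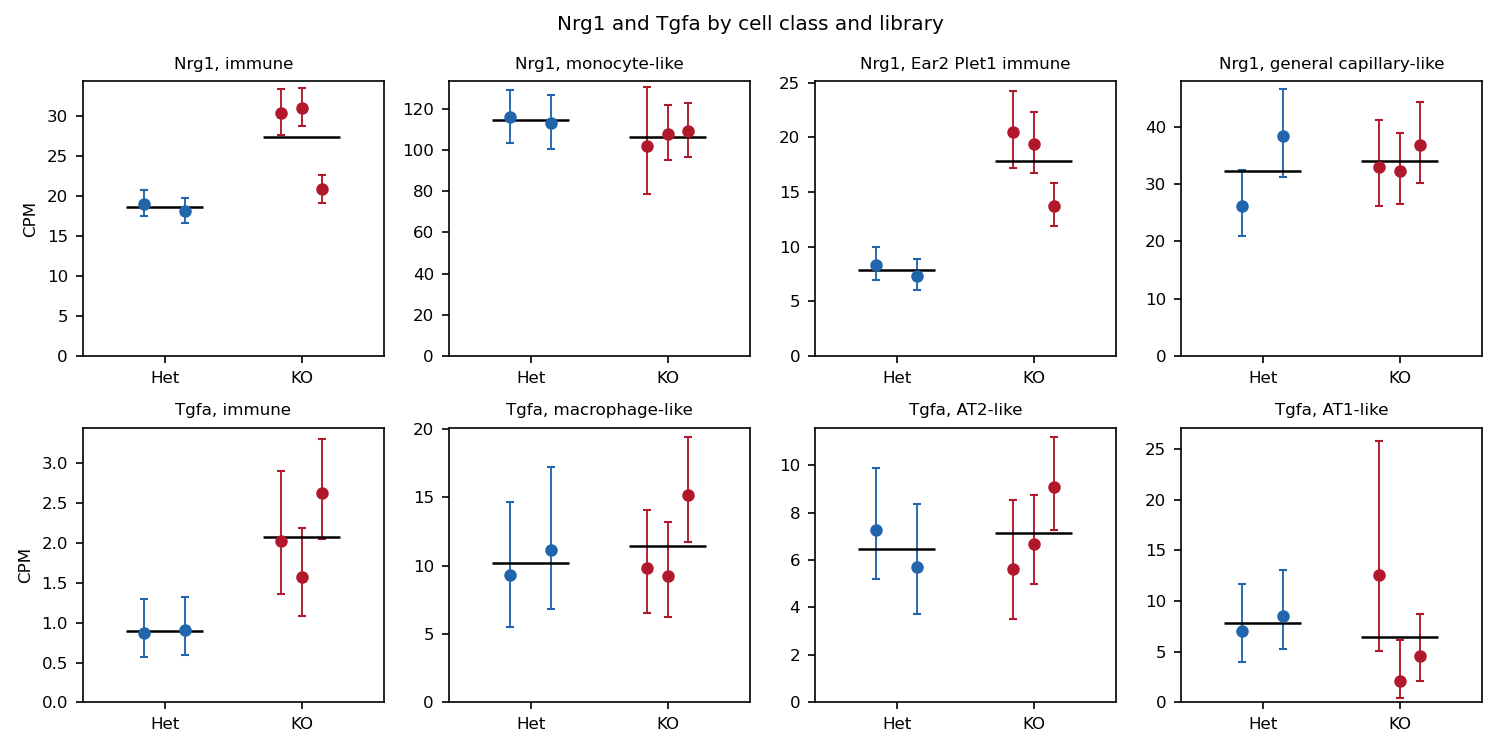
Nrg1 (top) and Tgfa (bottom) in CPM for each library (points, with exact Poisson 95% intervals; black lines are group means) over immune cells and in 3 classes each. Nrg1 is apart between groups in the Ear2 Plet1 class, and Tgfa is apart over all immune cells but overlaps in macrophage-like, AT2-like and AT1-like cells.

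The receptors Egfr and Erbb2 showed no call in any fit. Egfr was 62.6 and 65.0 CPM against 63.2, 53.9 and 66.7 CPM in adventitial fibroblast-like cells, with a log2 fold change of -0.0033 (SE 0.14). In AT2-like cells it was 11.1 and 15.6 CPM against 31.4, 19.4 and 17.5 CPM, without overlap. In AT1-like cells it was 41.5 and 44.2 CPM against 44.7, 27.4 and 29.2 CPM, with overlap. Erbb2 in AT2-like cells was 17.8 and 18.2 CPM against 28.6, 23.0 and 28.3 CPM, also without overlap, and in AT1-like cells 26.0 and 26.8 CPM against 25.0, 29.5 and 28.2 CPM. Erbb4 was not called in the whole library, where its log2 fold change was -0.07 (SE 0.75). Its libraries differed within each group: in mesenchymal cells it was 1.09 and 3.17 CPM in Het1 and Het2 and 3.49, 0.119 and 0.393 CPM in KO1, KO2 and KO3. The exact Poisson 95% intervals of KO1 (2.50 to 4.76 CPM) and KO2 (0.0030 to 0.665 CPM) did not overlap.

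The wider pathway was read from 7 lists of 87 other genes, all outside the chosen set. These lists were also chosen with earlier results of these data known, so their calls are not independent evidence either. In the whole library 3 of 83 tested genes were called, 1 higher (1.25% of all genes were higher) and 2 lower (3.39%). The higher one was Nrg2, a neuregulin gene named after its values were seen, at a mean of 2.77 CPM in the Het and 6.46 CPM in the KO libraries. The lower ones were Nrg4 and the ERK phosphatase gene Dusp5. In epithelial sums 5 of 79 were called, 4 higher and 1 lower, against 3.85% and 6.51% of all genes. In endothelial sums 7 of 71 were called, 1 higher and 6 lower, against 1.42% and 3.85%. In immune sums 10 of 76 were called, 4 higher and 6 lower, against 3.5% and 4.83%. In mesenchymal sums 0 of 80 were called by edgeR and 1 by DESeq2, with 15 at an unadjusted p under 0.05. Without Het1 the 3 whole-library calls and without Het2 the same count fell to 0, and without KO1 it was 6, without KO2 2 and without KO3 1. Without Het1 the 22 calls over the lineages fell to 1, without Het2 to 2, and with sex as a covariate to 6.

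In AT2-like cells 4 of 77 tested pathway genes (5.19%) were called, all higher, where 12.1% of all genes were called. In AT1-like cells 9 of 68 (13.2%) were called, 5 higher and 4 lower, where 6.56% of all genes were called. Dusp6, a phosphatase that inactivates ERK, was 35.4 and 38.5 CPM against 139, 85.8 and 78.0 CPM in AT1-like cells, all KO values being the higher ones (log2 1.29, SE 0.20, adjusted p = 0.000198 by edgeR). In AT2-like cells it was 35.4 and 36.7 CPM against 94.6, 82.2 and 70.6 CPM (log2 0.99, SE 0.17, adjusted p = 0.0067 by edgeR). Etv5, a transcription factor downstream of growth factor receptors, was 16.5 and 23.9 CPM against 37.5, 53.5 and 41.0 CPM in AT1-like cells (log2 1.10, SE 0.21, adjusted p = 0.0018 by edgeR). Phlda1 rose in both classes, by log2 0.76 in AT1-like and 0.73 in AT2-like cells. Every KO library was above both Het libraries in each of these 5 comparisons. The marker lists given above for the same classes moved with these genes too, and their part was not tested.

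Of the 14 ERK-induced genes, 4 of 12 tested in AT1-like cells were called, 3 higher and 1 lower, where 6.56% of all genes were called. In AT2-like cells 2 of 13 were called, both higher, where 12.1% of all genes were called. Fos, an immediate-early transcription factor gene, was the lower one, with a log2 fold change of -0.38 (SE 0.11, adjusted p = 0.0444 by edgeR). In epithelial sums Egr3 was lower, at 47.1 and 41.5 CPM against 18.4, 19.3 and 10.3 CPM (log2 -1.56, SE 0.22, adjusted p = 0.00828 by edgeR). In AT2-like cells Egr3 was instead higher from a low level, with means of 1.99 CPM and 5.84 CPM, and its epithelial call was lost when mixed cells were left out. The list thus did not move one way: its median log2 fold change was 0.40 in AT1-like, 0.32 in AT2-like and -0.12 in epithelial sums. With sex as a covariate the calls of Dusp6 in both classes, Phlda1 in AT2-like cells, Etv5 and Fos were lost. Without Het1, those of Dusp6 in AT2-like cells, Etv5 and Fos, those of Phlda1 in both classes and that of Egr3 were lost. Without Het2, those of Dusp6 in AT2-like cells and Fos were lost, and that of Fos also without KO2, without KO3, by DESeq2, with a filter of at least 10 UMIs in 2 libraries and when mixed cells were left out. The call of Dusp6 in AT2-like cells depended on the clustering: its log2 fold change was 0.33 at Leiden resolution 1 and 0.33 at 0.5, and it was called at neither.

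Of the enzymes that release ligands, Adam10 and Adam9 were lower in AT1-like cells of KO libraries. Adam10, a sheddase of several EGF-family precursors, was 107 and 104 CPM against 60.8, 78.1 and 80.0 CPM (log2 -0.52, SE 0.14, adjusted p = 0.0198 by edgeR). Adam9 was 43.4 and 39.4 CPM against 25.0, 19.0 and 29.7 CPM (log2 -0.76, SE 0.20, adjusted p = 0.0243 by edgeR). These 2 were the called genes among 9 tested, where 6.56% of all genes were called in AT1-like cells. Both calls were lost without Het1, without Het2, without KO2, with sex as a covariate, by DESeq2 and when mixed cells were left out, and that of Adam10 also without KO3.

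In immune cells the ligand Nrg4, which binds Erbb4, fell. It was 46.4 and 42.5 CPM against 26.4, 23.3 and 29.3 CPM over immune cells, with a log2 fold change of -0.82 (SE 0.09, adjusted p = 0.00181 by edgeR), and the call was kept in all 17 alternatives. Within the Ear2 Plet1 class Nrg4 was 71.7 and 62.3 CPM against 52.4, 45.4 and 50.2 CPM. The log2 fold change there was -0.48 (SE 0.09), and the call was kept in 13 of 16 alternatives. This class made up 42.9% and 43.3% of immune cells in the Het and 33.6%, 32.7% and 38.9% in the KO libraries. Its part in the immune difference was not tested. Over all immune cells Spred1, a brake on RAS signalling, rose by log2 0.61 and Etv5 by 1.01, calls that were lost without Het1, without Het2 and with sex as a covariate. Phlda1 fell by 0.56 on the log2 scale over immune cells, but without the alveolar macrophage-like cells it was 0.26 higher.

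On the activin side, Pmepa1, a gene that TGF-beta and activin signalling induces and that dampens it, fell in the Ear2 Plet1 class. It was 72.9 and 79.0 CPM in the Het and 28.0, 38.2 and 46.2 CPM in the KO libraries, with a log2 fold change of -1.02 (SE 0.13, adjusted p = 0.00225 by edgeR). The call was kept in all 16 alternatives. In the same class 2 of 13 tested genes of activin receptors and SMADs were called, Pmepa1 and Smurf2, both lower, where 6.36% of all genes were called. Smurf2, a ubiquitin ligase of this pathway named after its values were seen, had means of 46.5 CPM and 39.1 CPM. Of the activin and inhibin ligands and binding proteins, 0 of 6 tested in the whole library were called by edgeR or DESeq2, and 2 had an unadjusted p under 0.05, where 4.64% of all genes were called. The Ear2 Plet1 class also had less Dusp6 in KO libraries, at 36.4 and 33.9 CPM against 25.5, 24.5 and 25.2 CPM, with a log2 fold change of -0.52 (SE 0.08, adjusted p = 0.0043 by edgeR). This was opposite in direction to Dusp6 in AT1-like and AT2-like cells, and the difference between the classes was not tested. The Dusp6 call in the Ear2 Plet1 class was lost without Het1 alone of 16 alternatives. Of 13 ERK-induced genes tested in this class, 3 were called, all higher in KO libraries. Among them Ccnd1 rose by log2 1.04 (SE 0.22) and Fosl1 by 0.59 (SE 0.12). Both of these calls were lost without Het1, without Het2 and with sex as a covariate. Over all pathway lists 10 of 69 tested genes were called in the class, 4 higher and 6 lower, where 6.36% of all genes were called.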

How the data were processed

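The deposited files hold counts of unique molecular identifiers (UMIs) per gene and cell barcode, with 8722 to 13539 barcodes and 56608582 to 93708304 UMIs per library. Per the submitters' processing notes, the authors used Cell Ranger 4.0.0 and the mm10 build, and the kit was a 3′ version per the labels' protocols. Cells needed 500 genes or more and no more than 15% of UMIs from mitochondrial genes, and likely doublets were removed by comparison with simulated doublets, which left 18869 cells. Cells were clustered (Leiden resolution 2, 30 principal components, without the 10 genes) and named from marker lists by a rule completed after the clusters were seen. UMIs were summed per library and class and tested with edgeR 4.0.16 (quasi-likelihood test, TMM scaling, its default low-count filter), 2 Het against 3 KO libraries, without covariates. A class was fitted where each library had 50 cells or more of it, and levels need at least 10 cells. The smallest exact permutation p for 2 against 3 is 0.1. The scripts were tested on simulated data. Alternatives were DESeq2 1.42.0, other filters and scalings, clustering settings, a fit with sex, a block for replicate number, and fits without 1 library. The 10 genes and the pathway lists were chosen with earlier results of these data known. Pathway genes were named when they passed an adjusted p of 0.05, did not overlap between groups and reached 10 CPM in the higher group, at most 4 per direction, and some of these are left to the counts.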

Additional observations from a re-analysis of the deposited data

Results flagged for a closer look

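Erbb2 moved in opposite directions without overlap between the groups in different classes: its log2 fold change (KO over Het) was 0.35 in AT2-like cells and -0.54 in general capillary-like cells. Nrg1 did so as well, with 0.92 in alveolar myofibroblast-like cells and 1.12 in the Ear2 Plet1 class but -0.12 (SE 0.11) in monocyte-like cells. Only the Nrg1 value of the Ear2 Plet1 class was called. The adjusted p by edgeR was 0.205 and 0.213 for Erbb2 in AT2-like and general capillary-like cells. For Nrg1 it was 0.49 in alveolar myofibroblast-like and 0.83 in monocyte-like cells. The differences between the classes were not tested. The counts behind the alveolar myofibroblast-like value are low, with 4.04 and 12.8 CPM in Het1 and Het2 and 13.9, 17.7 and 15.5 CPM in KO1, KO2 and KO3.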

How the results depend on the processing

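Of the 3 calls among the 10 genes in the whole library, 0 remained with sex as a covariate, with a replicate block or without the alveolar macrophage-like cells, and leaving out 1 library gave 0 to 2. Of the immune calls (3), 0 remained without the alveolar macrophage-like cells, where Inhba and Tgfa were not called and Ereg was not tested. The epithelial count (1) was 2 with DESeq2, 2 with library size alone, 4 without a low-count filter, 0 with sex as a covariate, 2 with a replicate block, 3 with the strict cell filter and 0 with mixed cells left out, and leaving out 1 library gave 0 to 1. The class count (6) was 1 with sex as a covariate, and leaving out 1 library gave 0 to 8. The whole-library pathway count (3) was 6 with DESeq2, 0 with sex as a covariate and 0 with a replicate block, and leaving out 1 library gave 0 to 6. The lineage pathway count (22) was 42 without a low-count filter and 6 with sex as a covariate, and leaving out 1 library gave 1 to 26. The cause of these changes was not tested. Without the alveolar macrophage-like cells, log2 fold changes turned in sign for Ereg (0.20) and Inhba (0.091) in the whole library and for Inhba (0.16) and Phlda1 (0.26) in immune cells. Shared replicate numbers showed no sign of pairing: the deviations of Het1 and KO1 correlated at -0.109 and those of Het2 and KO2 at -0.105. With 2 Het libraries, the deviations of Het1 and Het2 from their mean mirror each other. This check therefore cannot exclude pairing. Among the 10 genes, the endothelial and mesenchymal counts stayed at 0 under the alternatives run. With 2 Het embryos, sex overlapping genotype in part, and few KO alveolar macrophage-like cells, differences within that class could not be fitted.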
